A study of Mus musculus with 9 samples.

Results

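The genes described here encode the heat shock chaperones of the cytosol, nucleus and mitochondria of mouse cells, with a few J proteins of other compartments that share their names. They were chosen by symbol: the HSP70, HSP110, HSP90, small heat shock protein, HSP60 and HSP10 genes, the DNAJA, DNAJB and DNAJC genes, and Hsf1, Bag3 and Stip1, leaving out the endoplasmic reticulum stress genes Hspa5, Dnajb9, Dnajb11 and Dnajc3. This gave 70 of the 20778 gene symbols in the deposited table. Of these, 61 averaged 10 or more across the 9 libraries and were tested.

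RNA was measured by bulk sequencing in 3 groups of 3 libraries. The 3D bioink group held a penta-culture in a fibrin gel, made of mCherry-labelled GL261 cells (a mouse glioblastoma line) and freshly isolated astrocytes, microglia, pericytes and endothelial cells from brains of male C57BL/6 mice aged 6 to 10 weeks. The 2D culture group held the same mixture on a petri dish, and in both GL261 was seeded at 1000000 cells per ml and the cell types were mixed at 1:1:2:0.1:0.1. The tumour group came from male, immunocompetent C57BL/6 mice that were 7 weeks old when 50000 labelled GL261 cells were implanted in the striatum, with brains resected on day 14. The labels mention 5 implanted mice and do not tie a library to a mouse or a culture. Only for the 3D bioink is a digestion before RNA isolation recorded, with 600 U/ml of collagenase II lasting 3 h and a mesh of 70 µm, so that growth in the gel and digestion cannot be told apart.

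Values are the normalized counts that the authors deposited, rounded to whole numbers. Their sum per library was 13548461 to 13683978 for 3D bioink, 15572800 to 15711632 for 2D culture and 16320090 to 16388074 for tumours, and the read depth is unknown. The microglia that were seeded in both cultures were hardly seen: 12 microglia and macrophage markers summed to 591 to 611 in 3D bioink and 249 to 311 in 2D culture, against 44538 to 47576 in tumours, and Tyrobp was listed at 0 in all 6 culture libraries. Every library is a mixture of cells, so fewer cells of a type and less RNA per cell cannot be told apart. Replicate 1 of the 3D bioink stood apart from the other 2 (its library weight was 0.236, the lowest of the 9, where the others had 0.688 to 4.96), and results that rest on it are given with and without it.

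Chaperones bind unfolded proteins and help them to fold, to be kept apart or to be destroyed. HSP70 works in cycles of ATP hydrolysis that J proteins (DNAJ) start and nucleotide exchange factors such as HSP110 and BAG3 end, HSP90 takes over clients from HSP70 through the adaptor STIP1, and the mitochondrial pair HSP60 and HSP10 forms a closed folding chamber. On heat or other protein stress the transcription factor HSF1 is released from chaperones, binds heat shock elements in promoters and induces a set of these genes, while others are expressed at all times. Chaperones are generally abundant in tumour cells.

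The element that HSF1 binds is made of repeats of the letters GAA in alternating orientation. Promoter windows of 300 bases (250 before to 50 after the annotated start, RefSeq, build GRCm38.p6) were found for 55 of the 70 genes. The letters GAANNTTC or TTCNNGAA, which hold 2 such repeats and were searched on both strands, occurred in 17 of the 55 (30.9%), against 17% of the windows of 27025 genes. Of 14 genes with a window in a list of 17 HSF1 targets drawn from general knowledge, 10 held it (71.4%). The longer GAANNTTCNNGAA was found in 4 of the 55 (Hspd1, Hspe1, Hsph1 and Dnajb6; 7.27%) and in 0.662% of all genes, and each occurrence of it contains both shorter forms. A match is a description of the letters and not of binding. Shown here are the windows of the inducible HSP70 pair Hspa1a and Hspa1b (chr17:34972107-34972406 and chr17:34959189-34959488, both minus strand), of Hspb1 (chr5:135887669-135887968, plus strand) and of Hspe1 (chr1:55087898-55088197, plus strand), whose values went in 3 different ways. Capitals mark GAANNTTC in Hspa1a, Hspa1b and Hspb1, and overlapping matches of the longer form in Hspe1.
Hspa1a: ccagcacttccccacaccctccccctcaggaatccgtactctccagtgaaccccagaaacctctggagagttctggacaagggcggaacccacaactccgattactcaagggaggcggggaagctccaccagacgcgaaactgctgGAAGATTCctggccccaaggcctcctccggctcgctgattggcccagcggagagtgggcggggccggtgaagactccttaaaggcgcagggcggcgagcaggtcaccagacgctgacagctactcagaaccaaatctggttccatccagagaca
Hspa1b: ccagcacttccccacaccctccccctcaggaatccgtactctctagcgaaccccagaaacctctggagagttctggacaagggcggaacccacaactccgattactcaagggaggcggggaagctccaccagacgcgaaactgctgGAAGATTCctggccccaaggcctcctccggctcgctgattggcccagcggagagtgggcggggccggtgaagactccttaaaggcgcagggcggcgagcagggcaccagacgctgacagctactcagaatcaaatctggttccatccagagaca
Hspb1: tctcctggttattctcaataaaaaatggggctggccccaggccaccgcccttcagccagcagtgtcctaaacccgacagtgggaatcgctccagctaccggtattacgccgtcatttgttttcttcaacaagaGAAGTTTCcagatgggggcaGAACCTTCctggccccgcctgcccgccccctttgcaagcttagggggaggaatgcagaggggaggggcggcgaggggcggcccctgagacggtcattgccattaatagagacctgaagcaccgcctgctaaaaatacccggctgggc
Hspe1: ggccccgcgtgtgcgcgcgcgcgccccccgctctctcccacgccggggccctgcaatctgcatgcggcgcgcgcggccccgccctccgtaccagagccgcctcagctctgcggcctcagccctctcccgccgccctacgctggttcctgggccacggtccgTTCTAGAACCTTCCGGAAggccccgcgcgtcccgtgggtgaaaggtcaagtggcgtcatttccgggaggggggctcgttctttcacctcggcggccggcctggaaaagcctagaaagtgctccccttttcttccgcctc
The Hspa1a and Hspa1b windows differed at 4 of 300 positions. Hspd1 and Hspe1 are transcribed away from each other, and their windows share 285 bases, so the same matches are seen from both genes.

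Across the 61 tested genes, 3D bioink differed from tumours in both directions, 2D culture was mostly higher than tumours, and 3D bioink was mostly lower than 2D culture. Between 3D bioink and tumours, 19 genes were higher and 20 lower in the bioink (limma, adjusted p under 0.05), 63.9% of those tested, where 64.4% of all 13773 genes tested were called, 27.1% higher and 37.3% lower. Other scalings of the libraries moved this split, to 27 higher and 14 lower with quantile normalization and 26 higher and 15 lower with equal upper quartiles. Between 2D culture and tumours, 28 were higher and 11 lower in 2D culture (63.9% called), against 54.3% of all genes called, 27.3% higher and 27% lower. Between 3D bioink and 2D culture, 10 were higher and 26 lower in the bioink (59%), against 59.2% of all genes, 27% higher and 32.2% lower. With equal upper quartiles this split was 15 higher and 22 lower. The median log2 difference of the 61 genes was 0.07 for 3D bioink over tumours, 0.44 for 2D culture over tumours and -0.24 for 3D bioink over 2D culture, beside -0.115, 0.00561 and -0.0184 for all genes. The 3 other scalings moved these medians of all genes to at most 0.0462, 0.173 and 0.118, shifts of over 0.1. The 2 groups did not overlap in 38 of the 61 genes for 3D bioink and tumours (67.6% of all genes tested), in 44 for 2D culture and tumours (63.9% of all genes) and in 41 for 3D bioink and 2D culture (67.1% of all genes). The first 2 comparisons share the tumour libraries, so their results are not independent.

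**Figure D1:**
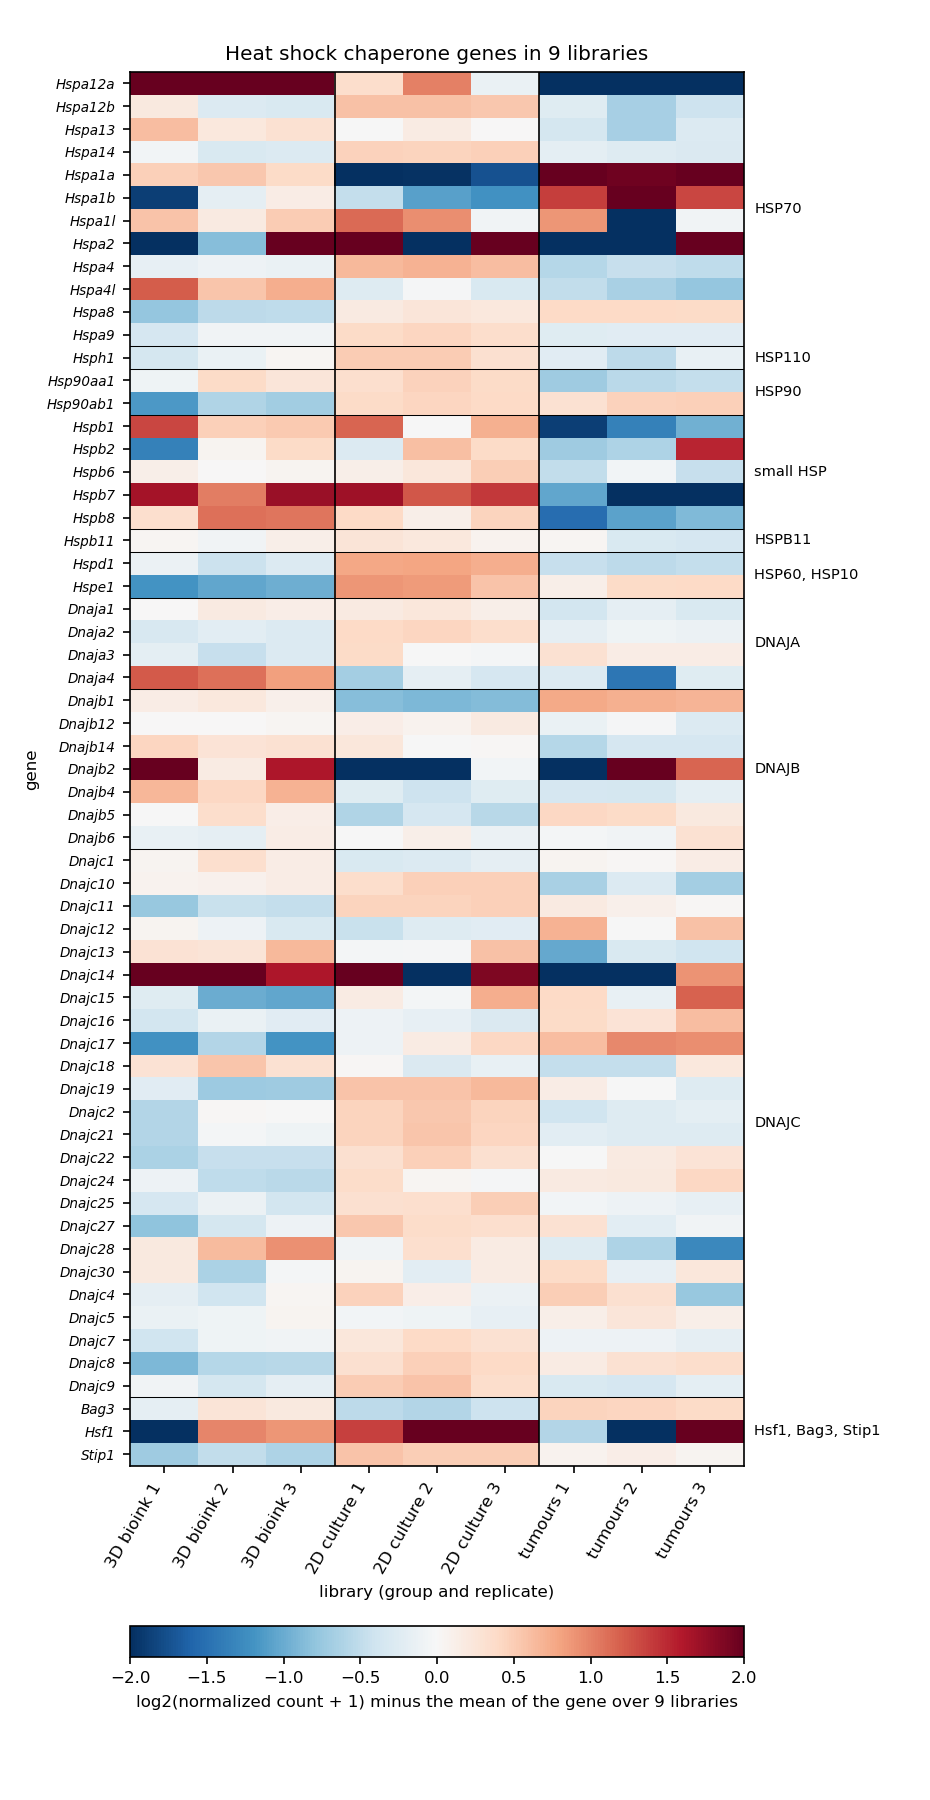
Heat map of the 61 tested genes (down the page, by family) in 9 libraries (across, 3D bioink, 2D culture and tumours with 3 replicates each). Colour is log2(normalized count + 1) minus the mean of that gene over the 9 libraries, limited to 2 on either side, a limit that 8 genes pass in at least 1 library; Hspa1a is darkest red in tumours and blue in 2D culture, while Hspe1 is blue in 3D bioink.

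The genes fell into distinct orders of their group means. In 16 of the 61 genes (26.2%, against 12.9% of all genes tested) 2D culture was highest and tumours lowest. Another 13 (21.3%, against 19% of all genes) had 2D culture highest and 3D bioink lowest, and 12 (19.7%, against 17.5%) had 3D bioink highest and tumours lowest. Tumours were highest, 3D bioink next and 2D culture lowest in 7 genes (11.5%, against 16.9%), which were Bag3, Dnajb1, Dnajb5, Dnajc12, Dnajc5, Hspa1a and Hspa1b. A further 10 (16.4%, against 18.2%) had tumours highest and 3D bioink lowest. Only 3 (4.92%, against 15.5%) had 3D bioink highest and 2D culture lowest.

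The 17 listed HSF1 targets did not move one way. They were Bag3, Dnaja1, Dnajb1, Dnajb4, Hsp90aa1, Hsp90ab1, Hspa1a, Hspa1b, Hspa4, Hspa4l, Hspa8, Hspb1, Hspb8, Hspd1, Hspe1, Hsph1 and Stip1. Among them Hspa8 and Hsp90ab1 are expressed at all times, and both were lower in 3D bioink than in tumours. In 3D bioink 8 were higher than in tumours, 8 were lower and 1 was not called (94.1% called, against 64.4% of all genes tested). In 2D culture 9 were higher than in tumours and 5 lower (82.4% called, against 54.3% of all genes). The 3D bioink had 5 higher and 7 lower than 2D culture (70.6% called, against 59.2%). The other 44 tested genes gave 11 higher and 12 lower, 19 higher and 6 lower, and 5 higher and 19 lower in the same 3 comparisons.

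**Figure D2:**
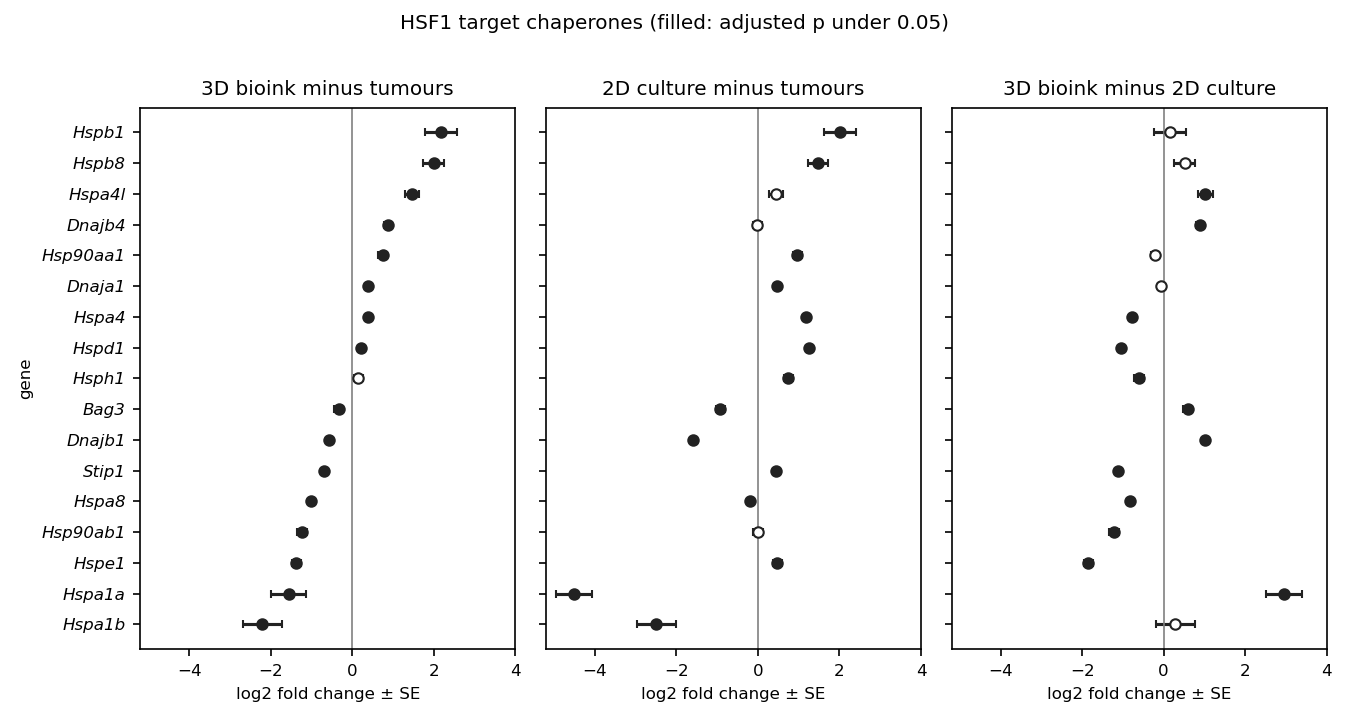
Log2 fold change of 17 listed HSF1 targets (down the page) in 3 comparisons, with the standard error from limma as bars and filled points for adjusted p under 0.05. Hspb1 and Hspb8 lie to the right and Hspa1a and Hspa1b to the left in both comparisons with tumours, and Hspe1 and Hsp90ab1 lie to the left in both comparisons of 3D bioink.

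Hspa1a and Hspa1b encode the stress-inducible HSP70 and are kept at low levels in unstressed cells. Hspa1a had 222, 232 and 210 normalized counts in 3D bioink, 11, 40 and 47 in 2D culture, and 693, 622 and 649 in tumours. The 3 groups did not overlap, with tumours highest and 2D culture lowest. It fell in 3D bioink against tumours (log2 -1.56, SE 0.43, adjusted p = 0.00982) and further in 2D culture against tumours (log2 -4.51, SE 0.43, adjusted p = 1.24e-05), and was higher in 3D bioink than in 2D culture (log2 2.95, SE 0.43, adjusted p = 0.000237). Without replicate 1 of 2D culture the last 2 values were -3.88 and 2.32. Hspa1b had 41, 136 and 171 in 3D bioink, 111, 72 and 66 in 2D culture, and 405, 616 and 390 in tumours. Both cultures were below tumours (log2 -2.21 and -2.49, SE 0.48 each, adjusted p = 0.00241 and 0.0014), and the 2 cultures overlapped. Without replicate 1 of the bioink, Hspa1b was 1.59 below tumours on the log2 scale and passed the test against 2D culture (log2 0.91, adjusted p = 0.0218). The coding sequences of the pair are 99.4% identical, so reads may have been divided between them in an uncertain way. Their sum was 263, 368 and 381 in 3D bioink, 122, 112 and 113 in 2D culture, and 1098, 1238 and 1039 in tumours. On the sum no groups overlapped, and 3D bioink was 3.36-fold and 2D culture 9.63-fold below tumours (adjusted p = 4.9e-06 and 6.85e-08), with 3D bioink 2.86-fold above 2D culture (adjusted p = 1.59e-05).

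Dnajb1 encodes the inducible HSP40 that stimulates HSP70, and it had the same order of groups. It had 2112, 2194 and 2031 normalized counts in 3D bioink, 1059, 1016 and 1044 in 2D culture, and 3227, 3128 and 3054 in tumours, with narrow groups that did not overlap. It fell by 0.57 (log2, SE 0.05, adjusted p = 7.95e-06) in 3D bioink and by 1.59 (adjusted p = 7.49e-09) in 2D culture against tumours, and was higher in 3D bioink than in 2D culture by 1.02 (adjusted p = 2.15e-07). Bag3, the HSP70 nucleotide exchange factor that directs clients to autophagy, had 3263, 4422 and 4244 in 3D bioink, 2598, 2487 and 2783 in 2D culture, and 5052, 5002 and 4846 in tumours. Its fall in 2D culture against tumours was 0.92 (SE 0.10, adjusted p = 3.61e-05). The smaller difference of 3D bioink from tumours (log2 -0.33, adjusted p = 0.0166) was not called under any of 3 other scalings (-0.24 to -0.01) or once the trend with transcript length was removed (-0.16). Dnajb5, another J protein that partners HSP70, had 353, 451 and 391 in 3D bioink, 234, 282 and 241 in 2D culture, and 474, 463 and 408 in tumours, and was lower in 2D culture than in tumours (log2 -0.83, adjusted p = 0.000362).

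A set of 17 immediate early genes, which are switched on within minutes of a stimulus and also during tissue handling, was ordered in the same way. Their summed normalized counts were 95343 to 103265 in 3D bioink, 16389 to 18077 in 2D culture and 186967 to 194447 in tumours. All 17 were lower in 2D culture than in tumours, where 27% of all genes tested were called lower. In 3D bioink 13 were lower and 2 higher than in tumours (37.3% and 27.1% of all genes). All 17 were higher in 3D bioink than in 2D culture (27% of all genes). None of the 17 was at 0 in all libraries of a group. Their part in the values of Hspa1a, Hspa1b, Dnajb1 and Bag3 was not tested. Hsf1 itself gave no usable level, with 2, 105 and 98 in 3D bioink, 138, 273 and 310 in 2D culture, and 35, 0 and 284 in tumours. The 3D bioink and 2D culture values of Hsf1 did not overlap, but tumours overlapped both and the values were widely spread. No comparison of Hsf1 was called, and without tumour replicate 3 it passed the test in 2D culture against tumours (log2 5.25, adjusted p = 0.0381).

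**Figure D3:**
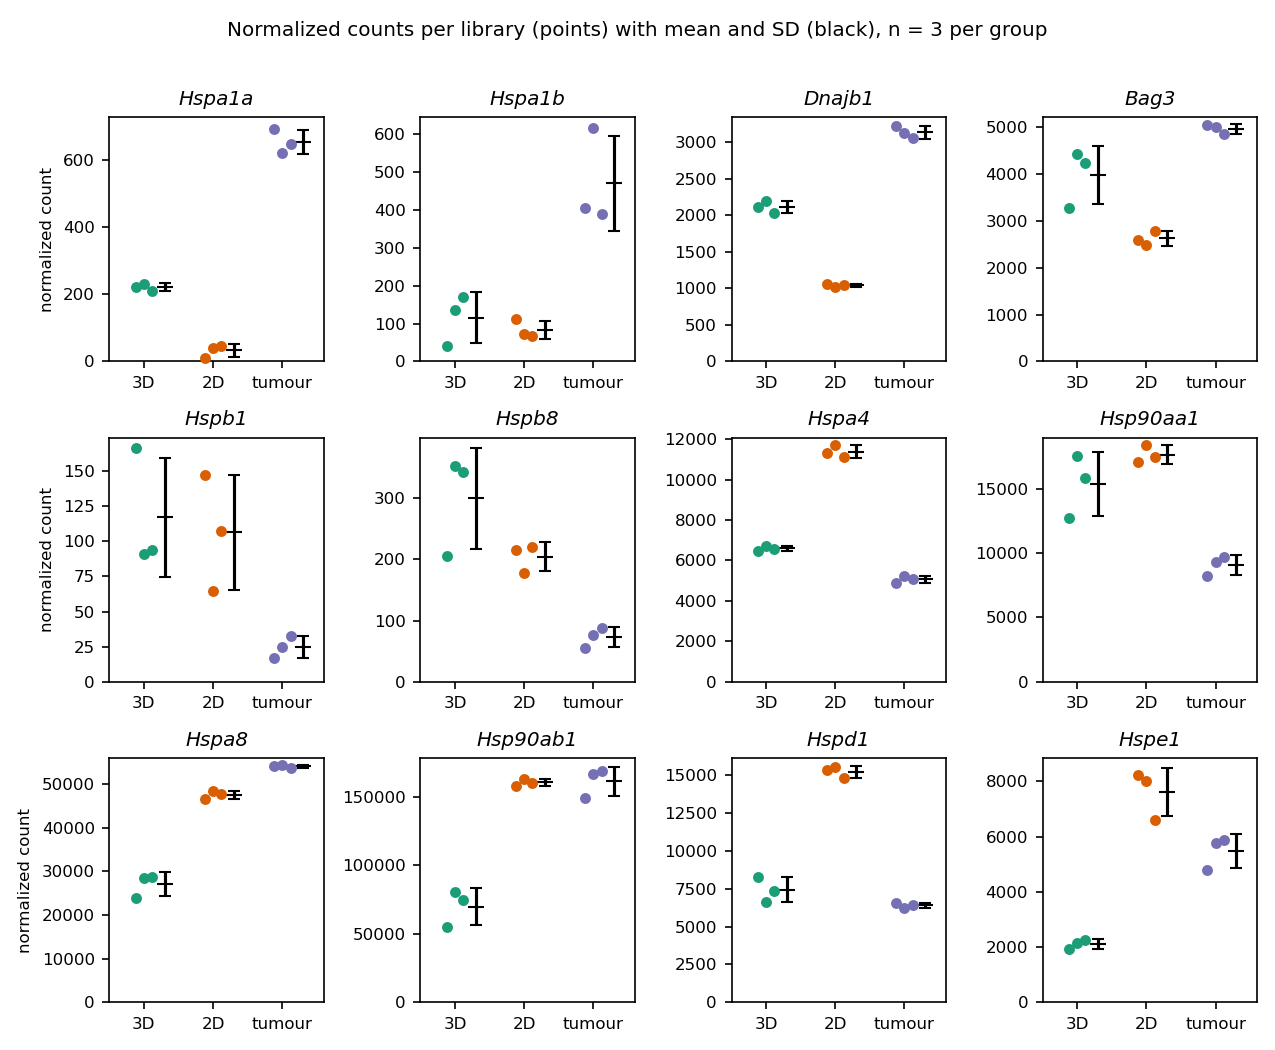
Normalized counts (vertical axes, each from 0) of 12 chaperone genes in single libraries of 3D bioink, 2D culture and tumours; coloured points are libraries, and black marks are the mean and SD of 3. Hspa1a, Hspa1b, Dnajb1 and Bag3 are highest in tumours, Hspb1 and Hspb8 are lowest there, Hspa8, Hsp90ab1 and Hspe1 are lowest in 3D bioink, and Hspa4 and Hspd1 are highest in 2D culture.

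The small heat shock proteins, which hold unfolded proteins in a state ready for refolding, were mostly lowest in tumours. Of 7 genes 5 were tested, and 4 were higher in each culture than in tumours (27.1% of all genes were called higher in 3D bioink and 27.3% in 2D culture), with none lower and none called between the 2 cultures. Hspb1, which encodes HSP25 in the mouse, had 166, 91 and 94 in 3D bioink, 147, 65 and 107 in 2D culture, and 17, 25 and 33 in tumours. Both cultures lay above tumours without overlap, 4.51-fold in 3D bioink (log2 2.17, SE 0.39, adjusted p = 0.000766) and 4.05-fold in 2D culture (log2 2.02, SE 0.39, adjusted p = 0.00152). Its transcript of 930 bases is short, and the 3D bioink value was 2.80 with the trend over transcript length, described further on, removed. Hspb8, which works with Bag3, had 205, 352 and 342 in 3D bioink, 215, 177 and 221 in 2D culture, and 56, 77 and 88 in tumours. It rose by 1.99 (SE 0.25, adjusted p = 7.08e-05) in 3D bioink and by 1.48 (adjusted p = 0.000667) in 2D culture on the log2 scale. Between the cultures it was called only without replicate 1 of the bioink (log2 0.77, adjusted p = 0.0146), with equal upper quartiles (0.66), with weights for the libraries (0.75) or without the length trend (0.80), among the alternatives run.

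Hspb7, known from heart and muscle, was low throughout, with 64, 41 and 67 in 3D bioink, 66, 48 and 54 in 2D culture, and 9, 1 and 0 in tumours. It was higher in both cultures (log2 4.39 and 4.38, adjusted p = 0.000498 and 0.000626), a size that hangs on the tumour libraries: it was 5.33 and 5.32 without tumour replicate 1, and 3.67 and 3.66 without replicate 3. Hspb6 had 345, 320 and 328 in 3D bioink, 345, 370 and 447 in 2D culture, and 225, 305 and 230 in tumours. It rose in 2D culture (log2 0.62, adjusted p = 0.0057), while its call in 3D bioink (log2 0.40, adjusted p = 0.0387) was lost when either tumour replicate 1 or 3 or any bioink replicate was left out (0.32 to 0.42), and its value was 0.89 with the length trend removed. Hspb6 overlaps Lin37 and Proser3, and Hspb2 overlaps Cryab, in the annotation. Hspb2 was not called in any comparison, with 8 to 29, 18 to 34, and 13 to 65 in the same order of groups. Hspb11, which is a subunit of intraflagellar transport and no chaperone of this family, was also not called with the main settings. Under each of the 3 other scalings Hspb11 was called higher in 2D culture than in tumours (log2 0.391 to 0.606). With the length trend removed it was called higher in 3D bioink than in tumours (0.97) and than in 2D culture (0.64). The 7 genes of the family summed to 788 to 880 in 3D bioink, 700 to 868 in 2D culture and 330 to 443 in tumours, so the cultures overlapped. Fibroblast markers, 6 in the list and 5 tested, were also lowest in tumours but separated the cultures, with sums of 13908 to 14971 in 3D bioink, 8952 to 9480 in 2D culture and 945 to 1004 in tumours. All 5 were higher in 3D bioink than in tumours and than in 2D culture (27.1% and 27% of all genes tested). In 2D culture 3 were higher (27.3% of all genes) than in tumours, where Dpt was at 0. Pericyte and mural markers summed to 2306 to 2434 in 3D bioink, 913 to 958 in 2D culture, where Kcnj8 and Vtn were at 0, and 1664 to 1831 in tumours. Of their 8 markers 6 were tested. In 3D bioink 3 were higher and 2 lower than in tumours (27.1% and 37.3% of all genes). In 2D culture 1 was higher and 4 lower than in tumours (27.3% and 27% of all genes). The part of these cells in the small heat shock protein values was not tested.

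Hspa8, Hsp90ab1 and Stip1 were lowest in 3D bioink, while Hsp90aa1 was lowest in tumours. Hspa8, the constitutive HSP70 (HSC70), had 23925, 28531 and 28797 in 3D bioink, 46563, 48334 and 47722 in 2D culture, and 54122, 54231 and 53665 in tumours. The bioink libraries lay far below both other groups (log2 -1.0 against tumours, SE 0.07, adjusted p = 1.18e-06, and -0.82 against 2D culture, adjusted p = 5.63e-06). The small difference of 2D culture from tumours (log2 -0.18, adjusted p = 0.0465) was lost when any 1 library of either group was left out (-0.20 to -0.17). Hsp90ab1, the constitutive cytosolic HSP90, had 54874, 80315 and 74586 in 3D bioink, 158007, 163409 and 160241 in 2D culture, and 149052, 166389 and 168789 in tumours. It was 2.34-fold lower in 3D bioink than in tumours and 2.33-fold lower than in 2D culture (log2 -1.22 in each, SE 0.12, adjusted p = 1.55e-05 and 1.95e-05), while 2D culture and tumours overlapped. Hsp90aa1, the inducible HSP90, was ordered differently, with 12706, 17559 and 15830 in 3D bioink, 17027, 18418 and 17484 in 2D culture, and 8247, 9295 and 9677 in tumours. It rose in both cultures against tumours (log2 0.75 and 0.96, SE 0.11, adjusted p = 0.000183 and 3.98e-05). Stip1, the adaptor between HSP70 and HSP90, had 2205, 2567 and 2360 in 3D bioink, 5375, 5099 and 5108 in 2D culture, and 3789, 3968 and 3735 in tumours. It was lowest in 3D bioink (log2 -0.69 against tumours, adjusted p = 6.45e-06, and -1.13 against 2D culture, adjusted p = 3.19e-07) and highest in 2D culture (log2 0.44 over tumours, adjusted p = 0.000183).

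Summed over all 70 genes, which weights them by level and transcript length, the chaperones made up 1.17, 1.45 and 1.41% of all normalized counts in 3D bioink, 2.07, 2.15 and 2.09% in 2D culture, and 1.74, 1.86 and 1.88% in tumours. The groups did not overlap, with 3D bioink lowest and 2D culture highest. Hsp90ab1 and Hspa8 were the 2 largest terms of the sum in every library.

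Hspa4 and Hsph1, nucleotide exchange factors of the HSP110 class, were highest in 2D culture. Hspa4 had 6474, 6722 and 6584 in 3D bioink, 11315, 11709 and 11093 in 2D culture, and 4873, 5232 and 5089 in tumours, with no overlap between groups (log2 0.38 for 3D bioink over tumours, 1.17 for 2D culture over tumours and -0.79 for 3D bioink over 2D culture, SE 0.05, adjusted p = 4.65e-05, 2.17e-08 and 4.38e-07). With the length trend removed, 3D bioink was at 0.13 against tumours and -0.99 against 2D culture, both called. Hsph1 had 1292, 1489 and 1680, 2338, 2335 and 2057, and 1408, 1139 and 1476 in 3D bioink, 2D culture and tumours. It was higher in 2D culture than in tumours (log2 0.75, adjusted p = 0.000446) and lower in 3D bioink than in 2D culture (log2 -0.60, adjusted p = 0.00175). The third gene of the class, Hspa4l, was instead highest in 3D bioink, with 597, 379 and 428, against 216, 253 and 209 in 2D culture and 184, 164 and 151 in tumours (log2 1.46 over tumours, SE 0.18, adjusted p = 5.81e-05, and 1.02 over 2D culture, adjusted p = 0.000762). Its transcript of 9479 bases is among the longest of these genes, and with the length trend removed the values were 0.71 and 0.41, the second not called (adjusted p = 0.083).

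Other HSP70 genes varied widely. Hspa12a, a distant relative of HSP70, had 144, 156 and 166 in 3D bioink, 27, 43 and 19 in 2D culture, and 3, 2 and 0 in tumours, with 3 separate groups. It was higher in 3D bioink than in tumours (log2 6.09, SE 0.55, adjusted p = 7.39e-06, and 5.49 without tumour replicate 3) and than in 2D culture (log2 2.42, adjusted p = 0.00384), and higher in 2D culture than in tumours (log2 3.67, adjusted p = 0.000303, and 3.07 without tumour replicate 3). The annotation places Eno4 over part of Hspa12a, and whether reads were counted by strand is not given in the sources used here. Its paralogue Hspa12b, known from endothelial cells, had 213, 154 and 151 in 3D bioink, 282, 281 and 272 in 2D culture, and 157, 117 and 139 in tumours, and was highest in 2D culture (log2 1.02 over tumours, adjusted p = 0.000782). The 8 endothelial markers were not highest there, with sums of 5391 to 7700 in 3D bioink, 4818 to 5149 in 2D culture and 5492 to 5854 in tumours. Of these markers 1 was higher and 4 were lower in 2D culture than in tumours (27.3% and 27% of all genes tested). None of the 8 was at 0 in all libraries of a group. Hspa14, which acts with Dnajc2 at the ribosome, was also highest in 2D culture, with 1319, 1118 and 1138 in 3D bioink, 1903, 1868 and 1914 in 2D culture, and 1196, 1148 and 1128 in tumours (log2 0.71 over tumours, adjusted p = 1.67e-05). Hspa2, known from the testis, was scattered within every group, with 0, 13 and 381 in 3D bioink, 293, 2 and 359 in 2D culture, and 1, 1 and 632 in tumours, and Hspa1l, also known from the testis, had 0 to 36. No comparison of either gene was called.

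Most mitochondrial genes were lower in 3D bioink than in 2D culture. Of 8 genes, 7 were lower and none higher in that comparison (87.5% called, against 59.2% of all genes). In addition, 5 were higher and none lower in 2D culture than in tumours (62.5%, against 54.3%), and 1 was higher and 5 lower in 3D bioink than in tumours (75%, against 64.4%). Dnaja3, Dnajc15 and Dnajc30 had their highest mean in tumours, and Hspd1 and Hspa9 had a higher mean in 3D bioink than in tumours. Under other scalings the counts for 3D bioink against 2D culture were 5 or 6 lower and none higher. Hspa9, the mitochondrial HSP70 (mortalin), had 9245, 11095 and 11136 in 3D bioink, 15121, 15784 and 14859 in 2D culture, and 9866, 10002 and 9945 in tumours. It was higher in 2D culture than in tumours (log2 0.62, adjusted p = 4.15e-05) and lower in 3D bioink than in 2D culture (log2 -0.55, adjusted p = 9.83e-05), and its difference of 0.07 between 3D bioink and tumours was not called, except under another scaling (0.17 to 0.52), with library weights (0.15) or without bioink replicate 1 (0.16).

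The genes of the HSP60 and HSP10 chamber, neighbours on chromosome 1, moved unequally. Hspd1 (HSP60) had 8251, 6614 and 7371 in 3D bioink, 15322, 15525 and 14767 in 2D culture, and 6535, 6217 and 6434 in tumours. Hspe1 (HSP10) had 1929, 2160 and 2257 in 3D bioink, 8219, 8027 and 6600 in 2D culture, and 4791, 5775 and 5875 in tumours. Both were highest in 2D culture, but Hspe1 fell in 3D bioink against tumours (log2 -1.37, SE 0.11, adjusted p = 2.56e-06), while Hspd1 was slightly higher (log2 0.21, SE 0.07, adjusted p = 0.0297). The Hspd1 call was lost without bioink replicate 1 or 3 or any 1 tumour replicate (0.13 to 0.22), and in a fit of these 2 groups alone. In 2D culture against tumours Hspd1 rose by 1.25 (adjusted p = 3.54e-07) and Hspe1 by 0.47 (adjusted p = 0.0038), and in 3D bioink against 2D culture they fell by 1.04 (adjusted p = 1.53e-06) and 1.84 (adjusted p = 4.51e-07). The ratio of Hspd1 to Hspe1 normalized counts, which is not corrected for length, was 4.28, 3.06 and 3.27 in 3D bioink, 1.86, 1.93 and 2.24 in 2D culture, and 1.36, 1.08 and 1.10 in tumours. No 2 groups overlapped, and each of the 3 comparisons gave p = 0.1 by a two-sided exact permutation test, the smallest that 3 against 3 libraries allow. Hspe1 has the shorter transcript, 774 bases against 2423 for Hspd1, and the 2 genes overlap in the annotation. Once the length trend was removed, Hspe1 was at -0.69 and Hspd1 at 0.41 in 3D bioink against tumours, both called (adjusted p = 0.000303 and 0.000976).

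Differences of 3D bioink from either other group ran with transcript length across all genes. The median log2 difference of 3D bioink from tumours was -0.75 for genes whose longest coding transcript is under 1000 bases and 0.78 for those of 8000 or more, and from 2D culture it was -0.70 and 0.61. For 2D culture against tumours the same medians were -0.04 and 0.12. After removal of this trend, 28 of the 39 chaperone calls between 3D bioink and tumours kept their direction and threshold, 38 of 39 between 2D culture and tumours, and 30 of 36 between 3D bioink and 2D culture. Dnaja1, an HSP70 partner, had 3403, 3827 and 3685 in 3D bioink, 3812, 3972 and 3672 in 2D culture, and 2622, 2995 and 2733 in tumours. Its rise in 3D bioink against tumours (log2 0.39, adjusted p = 0.000582) was no longer seen with the trend removed (-0.01), while it was also higher in 2D culture than in tumours (log2 0.46, adjusted p = 0.000234). Dnaja1 overlaps Smu1.

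**Figure D4:**
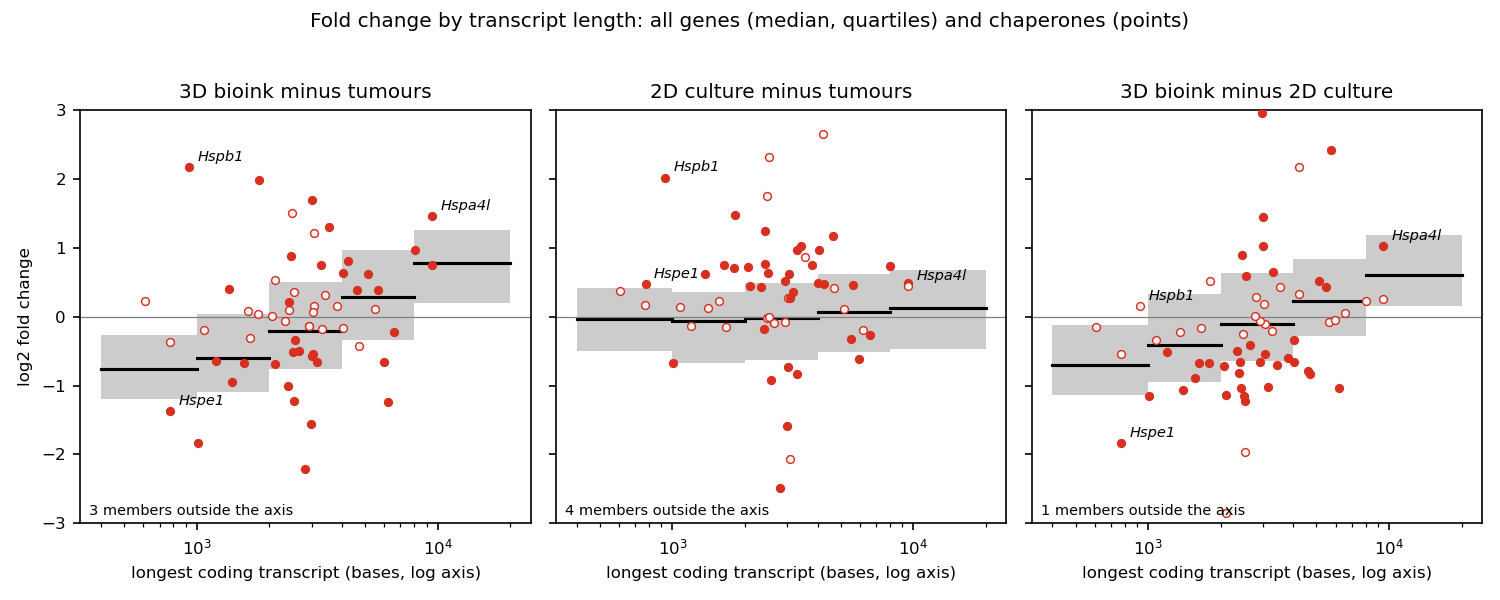
Log2 fold change against the length of the longest coding transcript (log axis, bases) in 3 comparisons. Black lines and grey boxes are the median and quartiles of all genes in 5 length classes, red points are the chaperone genes (filled where called), and 3, 4 and 1 of them lie beyond the vertical axis; the medians climb with length in both comparisons of 3D bioink, from -0.75 to 0.78 against tumours, and stay between -0.07 and 0.12 for 2D culture against tumours.

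The remaining mitochondrial genes are J proteins and import factors. Dnajc19, part of the motor that pulls proteins into mitochondria, had 509, 361 and 363 in 3D bioink, 887, 890 and 934 in 2D culture, and 658, 594 and 497 in tumours, with 3D bioink lower than 2D culture (log2 -1.15, adjusted p = 9.4e-05) and 2D culture higher than tumours (log2 0.64, adjusted p = 0.00434). Its fall in 3D bioink against tumours (log2 -0.51, adjusted p = 0.0118) was not called with quantile normalization (-0.34), equal upper quartiles (-0.35) or the length trend removed (-0.32). Dnajc11, tied to the inner membrane folds, had 836, 1033 and 1011, 1925, 1923 and 1950, and 1592, 1515 and 1424 in 3D bioink, 2D culture and tumours, and all 3 comparisons were called (log2 -0.66, 0.36 and -1.01, adjusted p = 8.29e-05, 0.00519 and 5.05e-06). Dnaja3 (Tid1) had 487, 405 and 459 in 3D bioink, 724, 551 and 541 in 2D culture, and 686, 613 and 617 in tumours. It fell in 3D bioink against tumours (log2 -0.51, adjusted p = 0.00586), and its call in 3D bioink against 2D culture (log2 -0.42, adjusted p = 0.0173) was lost under quantile normalization (-0.29), equal upper quartiles (-0.27), the length trend removed (-0.32), or without 2D culture replicate 1 (-0.28) or bioink replicate 2 (-0.34). Dnajc15 was low, with 58, 34 and 33 in 3D bioink, 77, 67 and 114 in 2D culture, and 91, 62 and 157 in tumours. Its calls in 3D bioink against tumours (log2 -1.24, adjusted p = 0.0183) and against 2D culture (log2 -1.04, adjusted p = 0.0418) were both lost without bioink replicate 2 or 3. The first was also lost without tumour replicate 3 (-0.88) and the second without 2D culture replicate 1 or 3 (-1.10 and -0.82). The second was further lost without the filter on the mean (-1.04), with median-of-ratios size factors (-0.96) and with equal upper quartiles (-0.90). With the length trend removed, Dnajc15 was at -1.7 against tumours and -1.41 against 2D culture, both called. Dnajc30 was not called in any comparison.

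Of 7 tested DNAJB genes, 2 were higher and 1 lower in 3D bioink than in tumours (42.9% called, against 64.4% of all genes). They had 2 higher and 2 lower in 2D culture than in tumours (57.1%, against 54.3%), and 3 higher and none lower in 3D bioink than in 2D culture (42.9%, against 59.2%). Dnajb4 had 861, 724 and 874 in 3D bioink, 455, 404 and 458 in 2D culture, and 430, 426 and 473 in tumours, so that 3D bioink lay above both (log2 0.88 and 0.90, SE 0.10, adjusted p = 3.86e-05 and 4.2e-05) and the other 2 groups overlapped. Dnajb14, a J protein of the endoplasmic reticulum membrane, also had its highest values in 3D bioink, with 774, 696 and 709, against 672, 573 and 583 in 2D culture and 387, 458 and 456 in tumours. It was higher in both cultures than in tumours (log2 0.75 and 0.49, adjusted p = 0.000123 and 0.00237). Its transcript has 9477 bases. With the length trend removed, 3D bioink was at -0.01 against tumours, not called, and at -0.36 against 2D culture, called lower. Dnajb2 had the same order of means as Dnajb4 at low and scattered values, with 39, 6 and 18 in 3D bioink, 0, 0 and 5 in 2D culture, and 0, 30 and 13 in tumours. No comparison of Dnajb2 was called with the main settings. Dnaja4, a membrane-bound HSP70 partner, had 152, 139 and 114 in 3D bioink, 40, 57 and 51 in 2D culture, and 53, 23 and 54 in tumours (log2 1.70 and 1.44 for 3D bioink over tumours and 2D culture, SE 0.35, adjusted p = 0.0018 and 0.00541). Dnaja4 overlaps Wdr61. Dnajb6, which keeps aggregation-prone proteins soluble, was called in no comparison, with 1570 to 1953 in 3D bioink, 1638 to 1911 in 2D culture and 1693 to 2184 in tumours.

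Among 9 genes of the endoplasmic reticulum (its J proteins and Hspa13), 5 were higher and 1 lower in 3D bioink than in tumours (66.7% called, against 64.4% of all genes). In 2D culture 5 were higher and 2 lower than in tumours (77.8%, against 54.3%), and 2 were higher and 2 lower in 3D bioink than in 2D culture (44.4%, against 59.2%). With the length trend removed, Dnajb14, Dnajc14 and Dnajc18 were no longer called higher in 3D bioink than in tumours. Dnajb12 was then called higher (log2 0.208), and Dnajc1 and Dnajc25 lower (-0.271 and -0.315). Against 2D culture, Dnajc1 and Dnajc18 were then no longer called higher (0.131 and 0.25). Dnajb14 and Dnajc16 were called lower than in 2D culture (-0.364 and -0.399). Dnajc10, a reductase that helps to clear misfolded proteins, had 1868, 1885 and 1967 in 3D bioink, 2280, 2465 and 2464 in 2D culture, and 1139, 1467 and 1111 in tumours (log2 0.63 and 0.97 over tumours, adjusted p = 0.000305 and 1.97e-05). Hspa13, an HSP70-like protein of microsomes, had 1280, 964 and 1036, 828, 931 and 835, and 654, 528 and 689 in 3D bioink, 2D culture and tumours (log2 0.81 and 0.48 for the cultures over tumours, adjusted p = 0.00036 and 0.0103). Dnajc16 was lower in both cultures (log2 -0.66 and -0.61, adjusted p = 0.000528 and 0.00109), with 398 to 469 and 417 to 477, against 622 to 787 in tumours. Dnajc14 was scattered, with 89, 150 and 55 in 3D bioink, 126, 0 and 65 in 2D culture, and 0, 0 and 33 in tumours, and its call against tumours (log2 4.82, adjusted p = 0.043) was lost without any 1 bioink replicate or tumour replicate 1 or 2 (3.97 to 5.17) and was 6.51 without tumour replicate 3.

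All 5 J proteins of the nucleus and ribosome were lower in 3D bioink than in 2D culture, in non-overlapping groups, where 32.2% of all genes tested were called lower and 67.1% did not overlap. Dnajc8, a factor linked to the spliceosome, had 1595, 1995 and 2029 in 3D bioink, 3685, 4147 and 3920 in 2D culture, and 3309, 3653 and 3803 in tumours (log2 -1.07 and -0.94 for 3D bioink against 2D culture and tumours, adjusted p = 8.9e-06 and 1.74e-05). Its transcript has 1401 bases, and with the length trend removed these values were -0.66 and -0.46, both called. Dnajc17 had 59, 92 and 60 in 3D bioink, 129, 154 and 185 in 2D culture, and 212, 270 and 263 in tumours, with 3D bioink lowest (log2 -1.83 against tumours, adjusted p = 6.69e-05, and -1.15 against 2D culture, adjusted p = 0.00166). With the length trend removed Dnajc17 was at -1.23 against tumours, still called, and at -0.60 against 2D culture, not called. Its fall in 2D culture against tumours (log2 -0.67, adjusted p = 0.0301) was lost under quantile normalization (-0.41) and without 2D culture replicate 1 or 2 or tumour replicate 2 or 3 (-0.67 to -0.55). Dnajc2 and Dnajc21, which act at the ribosome and in its assembly, and Dnajc9, a histone chaperone, were higher in 2D culture than in tumours (log2 0.76, 0.73 and 0.75, adjusted p = 0.00126, 0.000748 and 0.000268), and their values in 3D bioink and tumours overlapped. Without bioink replicate 1, however, Dnajc2 (log2 0.29) and Dnajc21 (0.18) were called higher in 3D bioink than in tumours. With the length trend removed, Dnajc9 was called higher in 3D bioink than in tumours (0.49), while Dnajc2 (0.306) and Dnajc21 (0.304) were not called.

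On vesicles, Dnajc5, the cysteine string protein of synaptic vesicles, had 1534, 1589 and 1740 in 3D bioink, 1612, 1577 and 1502 in 2D culture, and 1829, 1997 and 1818 in tumours, lower in both cultures (log2 -0.22 and -0.27, adjusted p = 0.0175 and 0.00725). The 3D bioink call was lost under each of the 3 other scalings (-0.12 to -0.05) and without tumour replicate 2 (-0.17). The Dnajc5 transcript has 6578 bases. With the length trend removed, Dnajc5 in 3D bioink was at -0.72 against tumours and at -0.35 against 2D culture, both called lower. Dnajc13, which acts on endosomes, had 870, 858 and 1118 in 3D bioink, 692, 700 and 1076 in 2D culture, and 352, 581 and 544 in tumours (log2 0.97 and 0.74, adjusted p = 0.00372 and 0.018). Its call in 3D bioink was lost with the length trend removed (0.33), and that in 2D culture without 2D culture replicate 3 (0.53) or tumour replicate 1 (0.52).

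The 24 tested DNAJC genes together had 5 higher and 10 lower in 3D bioink than in tumours (62.5% called, against 64.4% of all genes). They had 9 higher and 5 lower in 2D culture than in tumours (58.3%, against 54.3%), and 2 higher and 14 lower in 3D bioink than in 2D culture (66.7%, against 59.2%). These total shares lie near those of all genes, but the split by direction between the cultures was more one-sided. There, 27% of all genes were called higher and 32.2% lower in 3D bioink. Too low to be tested were 9 of the 70 genes, namely Dnajb13, Dnajb3, Dnajb7, Dnajb8, Dnajc5b, Dnajc5g, Dnajc6, Hspb3 and Hspb9. Dnajc5g was listed at 0 in all 9 libraries.

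Other genes of the folding machinery, from lists drawn from general knowledge, were set beside the chaperones. Their counts stand against 27.1% of all genes called higher and 37.3% lower in 3D bioink than in tumours, 27.3% and 27% in 2D culture than in tumours, and 27% and 32.2% in 3D bioink than in 2D culture. The trend with transcript length, which ran through both comparisons of 3D bioink, was not removed from the values given for these genes. Its part in their differences was not tested. The 7 measured subunits of TRiC, the cytosolic chaperonin that folds actin and tubulin, were all lower in 3D bioink than in 2D culture, with 6 higher and none lower in 2D culture than in tumours, and 2 higher and 3 lower in 3D bioink than in tumours. Cct3 had 2617, 2644 and 2709 in 3D bioink, 6951, 6675 and 6301 in 2D culture, and 4165, 4398 and 4378 in tumours (log2 -0.70, 0.62 and -1.32 in the 3 comparisons, adjusted p = 1.53e-06, 3.72e-06 and 4.4e-08). Cct8 had 3517, 2707 and 2905, 5872, 5765 and 6073, and 2256, 2226 and 2339 in 3D bioink, 2D culture and tumours, with 2D culture far above tumours (log2 1.38, adjusted p = 5.57e-07). All 6 subunits of prefoldin, which delivers clients to TRiC, were lower in 3D bioink than in 2D culture, and 5 were lower and 1 higher in 3D bioink than in tumours. In 2D culture 2 were higher and 1 lower than in tumours. Pfdn6 (log2 -1.23, adjusted p = 2.21e-06) fell most against tumours, Pfdn4 most against 2D culture (log2 -1.55, adjusted p = 0.000143), and Vbp1 was the subunit higher in 3D bioink than in tumours (log2 0.32, adjusted p = 0.00425).

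Of 19 cochaperones of HSP90 and HSP70, 12 were higher and none lower in 2D culture than in tumours, while 4 were higher and 11 lower in 3D bioink than in tumours, and 1 higher and 14 lower in 3D bioink than in 2D culture. Fkbp4, an HSP90 partner of steroid receptors, had 3487, 3934 and 3745 in 3D bioink, 9668, 9647 and 9633 in 2D culture, and 7514, 7849 and 8924 in tumours (log2 -1.38 for 3D bioink against 2D culture, adjusted p = 1.85e-07). Hspbp1, an HSP70 exchange factor, had 290, 246 and 281, 597, 567 and 687, and 799, 635 and 697 in 3D bioink, 2D culture and tumours (log2 -1.38 for 3D bioink against tumours, adjusted p = 5.27e-06). Fkbp5, which glucocorticoids induce, was higher in both cultures than in tumours, with 691, 983 and 906, and 1344, 1262 and 1085, against 335, 433 and 381 (log2 1.16 and 1.68, adjusted p = 7.86e-05 and 6.65e-06). Of 9 genes of mitochondrial protein quality control, none was higher and 7 were lower in 3D bioink than in tumours, 6 were lower and none higher in 3D bioink than in 2D culture, and 2 were higher and 1 lower in 2D culture than in tumours. Trap1, the mitochondrial HSP90, had 860, 979 and 902 in 3D bioink, 1664, 1783 and 1755 in 2D culture, and 2014, 1931 and 1805 in tumours (log2 -1.07 for 3D bioink against tumours, adjusted p = 7.46e-07). The protease gene Clpp was lower in 3D bioink than in 2D culture (log2 -1.23, adjusted p = 1.03e-05) and higher in 2D culture than in tumours (log2 0.40, adjusted p = 0.0139).

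Among further HSF1 targets, the polyubiquitin gene Ubb had 22321, 28318 and 25016 in 3D bioink, 28981, 30745 and 31402 in 2D culture, and 61983, 64267 and 65191 in tumours (log2 -1.35 and -1.07 against tumours, adjusted p = 4.06e-07 and 2.02e-06). Serpinh1, the collagen chaperone HSP47, was lower in 3D bioink than in 2D culture (log2 -1.83, adjusted p = 0.00913), with 121, 143 and 389 against 1066, 494 and 585. Of 4 other HSF genes and HSF regulators 3 were tested, and Hsf5 was too low. One was higher and 1 lower in 3D bioink than in tumours and likewise than in 2D culture, and 1 was higher in 2D culture than in tumours. Hsf2 was higher in both cultures than in tumours (log2 0.83 and 0.49, adjusted p = 0.00141 and 0.0291), and Hsf4, at 67, 22 and 37 in 3D bioink and 11, 10 and 9 in 2D culture, was higher in the bioink than in 2D culture (log2 1.83, adjusted p = 0.0123). Hsbp1, which encodes a protein that binds HSF1, had 436, 383 and 432 in 3D bioink, 630, 571 and 629 in 2D culture, and 655, 602 and 682 in tumours. It was lower in 3D bioink than in both (log2 -0.63 against tumours and -0.55 against 2D culture, adjusted p = 0.000183 and 0.000558).

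Of the 4 endoplasmic reticulum genes that the choice by symbol left out, 1 was higher and 2 lower in 3D bioink than in tumours, and 1 was higher and 3 lower in 2D culture. Dnajb9 had 993, 827 and 947 in 3D bioink, 204, 222 and 216 in 2D culture, and 799, 840 and 751 in tumours, with 2D culture below both (log2 -1.89 against tumours, adjusted p = 1.24e-07, and 2.10 for 3D bioink over 2D culture, adjusted p = 1.05e-07). Dnajb11 was lowest in 3D bioink, with 1379, 1416 and 1451, against 2501, 2585 and 2425 in 2D culture and 2738, 2769 and 3020 in tumours (log2 -1.0 against tumours, adjusted p = 2.9e-07).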

How the data were processed

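The authors deposited 1 table of normalized counts per gene symbol and library, rounded to whole numbers, here treated as a score since the scale factor is not given. The tools listed in the submitters' processing notes are DESeq2 1.24.0, DESeq, RSEM and kallisto, and the build is mm10, with no role or order. Per the labels' protocols, libraries were made from 25 to 75 ng of RNA with a directional kit and 14 cycles of amplification. No depth is known, so no counting interval is given, and a gene without signal is said to be listed at 0.

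Values were taken as log2(value + 1), which understates changes of low genes. Genes with a mean of at least 10 (13773 of 20778) entered 1 limma model (version 3.58.1, R 4.3.3; trend) over the 9 libraries, with 3 contrasts and Benjamini-Hochberg adjustment at 0.05 over all genes tested, first tested on simulated data. Groups came from the sample titles. The labels name no separate cultures or animals, so the p-values reflect only how far these libraries spread, perhaps for technical reasons. Every column of the table was used. Named genes were a fixed set of 21, the 5 largest rises and falls per comparison whose groups do not overlap and whose higher group averages 100 or more, the untested genes, the largest change per pathway list and comparison, and others where a sentence turns on them. The members and lists were chosen with earlier results of these data known. One gene of the list of further HSF1 targets is not reported here, for a reason unrelated to its values, so no count is given over that list. A ratio was compared by an exact permutation test (scipy 1.17.1). Promoter windows are from RefSeq and gene positions from GENCODE on GRCm38. The annotated span of 20 of the 70 genes, introns included, overlaps that of another gene of the table on either strand. How reads from the shared stretches were assigned is not known. Alternatives covered pseudocount, filter, scaling, the groups fitted, library weights, a replicate block and leaving out each library. Removal of the trend with transcript length and the sum of Hspa1a and Hspa1b were added after seeing the data.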

Additional observations from a re-analysis of the deposited data

How the results depend on the processing

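The counts of called genes kept within 1.5 times under every alternative run, except that library weights gave 18 genes higher in 3D bioink than in 2D culture in place of 10. Leaving out 1 library gave 9 to 12 there. No paired reading was warranted: deviations of libraries with the same number correlated at -0.03 to 0.08, and of other numbers at -0.06 to 0.05. With the replicate number as a block, 18 were higher and 19 lower in 3D bioink than in tumours, 28 and 11 in 2D culture than in tumours, and 10 and 27 in 3D bioink than in 2D culture. Signs were followed under every alternative for 28 tested chaperones named by the fixed rule. Of their called differences, the sign turned for Dnaja1 in 3D bioink against tumours (-0.00726, length trend removed), and the others that turned were not called with the main settings. In 3D bioink against tumours that was Dnajb5 with quantile normalization (0.0101). In 2D culture against tumours, quantile normalization gave 0.0851 for Hsp90ab1, 0.0597 for Dnajb4 and 0.229 for Dnajc15, median-of-ratios size factors gave 0.00639 for Hsp90ab1, equal upper quartiles gave 0.012 for Hsp90ab1 and 0.00383 for Dnajb4, and removal of the length trend gave 0.0573 and 0.0523 for the same pair. In 3D bioink against 2D culture, quantile normalization gave 0.0742 for Hsp90aa1, -0.0573 for Hspb1 and 0.186 for Dnaja1, median-of-ratios size factors gave 0.0119 and equal upper quartiles 0.0753 for Dnaja1, and library weights gave 2.11 for Hspa2 and -0.0163 for Hspb1. The cause was not tested. Leaving out 1 library turned the sign of 9 uncalled differences: in 3D bioink against tumours Hsf1 (-1.68 to 2.40) and Hspa2 (-1.87 to 3.13), in 2D culture against tumours Dnaja4 (-0.129 to 0.469), Dnajb4 (-0.0455 to 0.0448), Dnajc15 (-0.508 to 0.156) and Hsp90ab1 (-0.062 to 0.0277), and in 3D bioink against 2D culture Hspa1b (-0.109 to 0.908, called without bioink replicate 1), Hspa2 (-4.22 to 0.1) and Hspb1 (-0.156 to 0.426). Depth is unknown, so detection limits cannot be given.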
